A study of Rattus norvegicus with 21 samples.

Results

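LINE-1 elements were followed through 3 kinds of RNA from cultured rat astrocytes: poly(A) RNA, total RNA used as input, and RNA immunoprecipitated with the J2 antibody. The set was chosen by name alone, as every repeat name that starts with L1 or Lx or contains HAL1. It held 123 of the 1275 repeat names counted. Of these, 85 carried mammal-wide L1M names and 29 carried rodent names, namely 20 Lx names, 6 names with Rat or Rn and 3 names with Mur. The remaining 9 names were 5 HAL1 names and 4 others (L1_Rod, L1VL4a, L1P5 and L1PB4).

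LINE-1 elements are retrotransposons that move through an RNA copy. An intact element encodes ORF1p, which coats its own RNA, and ORF2p, an endonuclease and reverse transcriptase, and its transcript carries a poly(A) tail. Most genomic copies are truncated fragments that lie in introns or between genes. Names from L1MA to L1ME mark old families shared by mammals, with L1MA the youngest and L1ME the oldest of them. Lx elements belong to the murine rodents, the L1_Rn and L1_Rat names to rat, and HAL1 elements are LINE-1 relatives that keep the ORF1 part only. TDP-43, encoded by Tardbp, is an RNA-binding protein that also binds transcripts of repeats, and the J2 antibody recognises double-stranded RNA whatever its sequence.

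The cells were primary astrocytes of neonatal Sprague-Dawley rats at passages 2 to 3, transfected with siRNA by a lipid reagent. The 9 poly(A) libraries came from cells with a scrambled siRNA, from cells with an siRNA to TDP-43, and from cells with the latter plus ATP. The 12 total RNA libraries were input and J2-immunoprecipitated RNA (J2ip) from control cells and from cells given TDP-43 siRNA. Each of the 7 groups had 3 libraries. Whether those control cells received a scrambled siRNA is not stated in the labels, nor is the dose or duration of ATP. All knockdown was by transfected siRNA, so an off-target effect of the siRNA and loss of TDP-43 cannot be told apart. Separate cultures are not stated for the libraries of a group, and the p-values cover only how these libraries vary, which may be technical.

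In the poly(A) gene table Tardbp stood at 179, 158 and 172 counts per 1000000 (CPM) with scrambled siRNA and at 29.6, 20.7 and 24.1 CPM with TDP-43 siRNA. It fell by 2.77 on the log2 scale (SE 0.132, edgeR quasi-likelihood adjusted p = 1.13e-09). No gene table of the immunoprecipitation was used, so the knockdown could not be checked there. The poly(A) repeat libraries held 3295309 to 39050521 counts, the input libraries 9472224 to 11657521 and the J2ip libraries 1852900 to 3374284. Library 1 of the scrambled group stood apart: ribosomal RNA names took 40.1% of its repeat counts, against 79.8 to 96.2% in the other 8 poly(A) libraries. LINE-1 counts per library were 269414 to 548560 in poly(A) RNA and 299397 to 1234786 in the immunoprecipitation. Astrocyte markers were all present, with a summed level of 5600 to 6780 CPM in scrambled, 4270 to 5350 CPM in TDP-43 siRNA and 4840 to 5580 CPM in TDP-43 siRNA and ATP libraries. Markers of fibroblasts, mural and endothelial cells summed to 3930 to 5240, 1270 to 1880 and 1570 to 1610 CPM in the same order, with 1 of the 7 at 0 throughout. Acta2, an actin of mural cells, made up most of that sum, and without it the sums were 1130 to 1230, 711 to 976 and 722 to 800 CPM. Microglial markers summed to 166 to 202, 125 to 156 and 127 to 163 CPM, neuronal markers to 53.1 to 59.8, 66.6 to 74.9 and 69.5 to 74.2 CPM, and oligodendrocyte-lineage markers to 120 to 168, 110 to 131 and 144 to 187 CPM. The part of these shifts in the poly(A) results was not tested, and fewer cells of a type and less RNA per cell cannot be told apart in bulk RNA.

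In poly(A) RNA no LINE-1 name passed the test after TDP-43 knockdown, but the mix of LINE-1 counts differed between the groups. The rodent names held 86.3, 78.9 and 83.5% of LINE-1 counts in the scrambled libraries and 77.3, 75 and 77.7% in the TDP-43 siRNA libraries. They held 75.6, 75.2 and 73.6% in the libraries with TDP-43 siRNA and ATP. Every scrambled library was above every knockdown library. The mean share was 82.9% ± 3.74 (SD, n = 3) with scrambled siRNA against 76.7% ± 1.46 (n = 3) with TDP-43 siRNA, a difference of -6.23 percentage points (exact two-sided permutation p = 0.1, the smallest that 3 against 3 libraries allow). With ATP as well, the mean was 74.8% ± 1.06 (n = 3) and the difference from scrambled siRNA was -8.1 points (exact permutation p = 0.1, again the smallest possible). Without scrambled library 1 these differences were -4.53 and -6.4 points. The mammal-wide share was 14.6% in scrambled, 20.2% in TDP-43 siRNA and 22% in TDP-43 siRNA and ATP libraries.

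**Figure D1:**
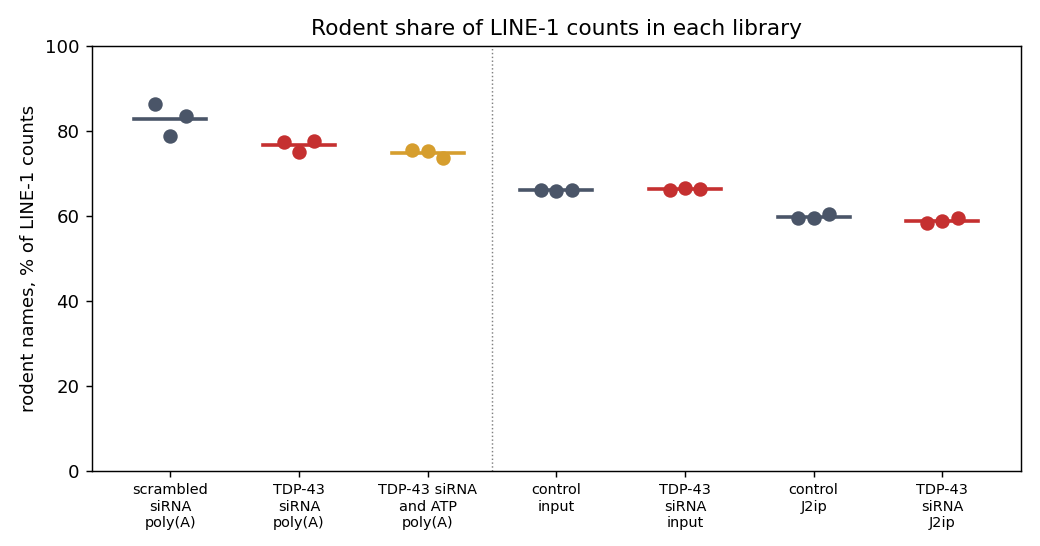
Share of LINE-1 counts held by rodent names (vertical axis, percent), one point per library and a line at the mean, in the 7 groups (horizontal axis). The scrambled libraries, at 78.9 to 86.3%, lie above all 6 knockdown libraries of poly(A) RNA, and the J2ip libraries lie below the input libraries.

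The plot of rodent shares shows the 2 separations of the data, scrambled from knockdown in poly(A) RNA and input from J2ip in total RNA. Within poly(A) RNA the fall was in the summed share of the 6 rat names, though not in each of them, as given below. These held 60.6, 43.3 and 52% of LINE-1 counts with scrambled siRNA, 39, 36.4 and 40.4% with TDP-43 siRNA and 36.7, 35.1 and 32.5% with TDP-43 siRNA and ATP. The Lx names went the other way in share, at 28.8% ± 4.42 (n = 3), 35% ± 0.493 (n = 3) and 36.6% ± 0.971 (n = 3). A fall in the rat share by itself raises the other shares. The median log2 difference of the Lx names from scrambled siRNA was 0.02 with TDP-43 siRNA and 0.15 with ATP as well. These shares of subgroups were computed after the data were seen and carry no test.

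L1_Rat3, the most counted LINE-1 name in poly(A) RNA, stood at 6780, 3130 and 4780 CPM in scrambled libraries. It stood at 2420, 2210 and 2550 CPM with TDP-43 siRNA and at 2210, 1960 and 1650 CPM with TDP-43 siRNA and ATP, so the lowest scrambled library was above all 6 knockdown libraries. The log2 difference from scrambled siRNA was -1.03 for TDP-43 siRNA (SE 0.243, edgeR adjusted p = 0.233), which did not pass. Repeat CPM in all that follows is per 1000000 of the library's scaled repeat total, and it compares 1 name between libraries, not names with each other, since copy number and length differ between names.

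L1_Rn, the young rat family, had 2340, 1280 and 1620 CPM in scrambled libraries, 1070, 996 and 1190 CPM with TDP-43 siRNA and 970, 855 and 785 CPM with TDP-43 siRNA and ATP. The groups did not overlap, and the log2 difference for TDP-43 siRNA was -0.68 (SE 0.2, edgeR adjusted p = 0.255). L1_Rat4 had 1510, 1120 and 1390 CPM, then 994, 981 and 972 CPM, then 981, 911 and 913 CPM in the same order. Its log2 difference was -0.45 (SE 0.121, edgeR adjusted p = 0.249), again without overlap. L1_Rat2 had 2320, 1310 and 1610 CPM against 1280, 1130 and 1430 CPM with TDP-43 siRNA, which overlap, and 1110, 993 and 909 CPM with ATP as well, which do not. L1_Rn2 behaved differently among the scrambled libraries: it had 770, 1590 and 2430 CPM there, 909, 918 and 717 CPM with TDP-43 siRNA and 944, 849 and 1030 CPM with TDP-43 siRNA and ATP. Scrambled library 1, the highest for L1_Rat3, L1_Rat2 and L1_Rn, was the lowest for L1_Rn2. L1_Rat1 showed no separation, with 300, 391 and 361 CPM against 338, 368 and 312 CPM. Reads of these closely related names may be shared between them, so the split among single rat names is uncertain.

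**Figure D2:**
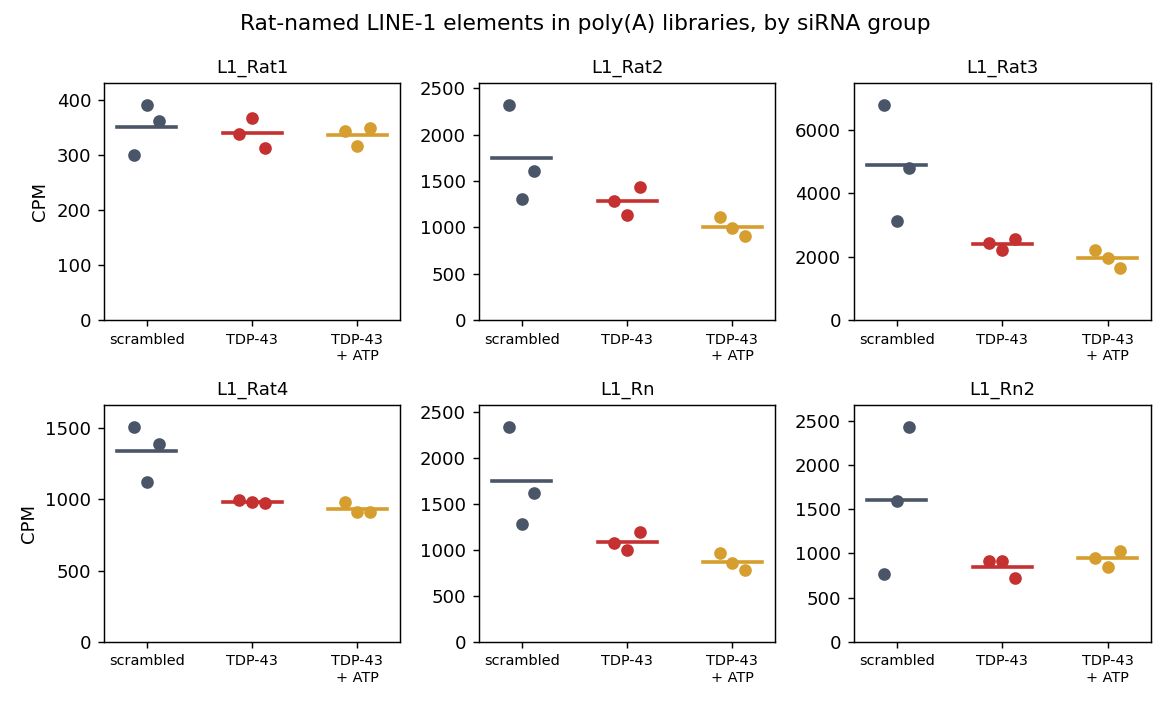
CPM (vertical axis, from 0, own scale in each panel) of the 6 rat-named LINE-1 elements in the 3 poly(A) groups, one point per library with a line at the mean. L1_Rat3, L1_Rn and L1_Rat4 in the scrambled libraries lie above both knockdown groups, L1_Rat2 and L1_Rn2 overlap in part, and L1_Rat1 overlaps.

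Across the 120 LINE-1 names tested, edgeR called 0 after TDP-43 siRNA, where 0.264% of all repeat names were called, 0.088% higher and 0.176% lower. At an unadjusted p under 0.05 there were 14 LINE-1 names (11.7%, beside 12.1% of all repeat names). DESeq2 called 4 (3.31%, beside 2.56% of all repeat names), so both shares were near the background. The names called by DESeq2 were L1MCb (log2 0.91, adjusted p = 0.00239) and L1M3e (0.49, adjusted p = 0.0465) upward, and L1_Rat3 (-1.04, adjusted p = 0.00891) and L1_Rat4 (-0.46, adjusted p = 0.0225) downward. L1MCb, a mammal-wide name with few counts, had 6.33, 4.08 and 5.6 CPM with scrambled siRNA, 9.24, 10.4 and 10.8 CPM with TDP-43 siRNA and 8.35, 7.26 and 7.3 CPM with TDP-43 siRNA and ATP. Its groups did not overlap, and its edgeR difference for TDP-43 siRNA was 0.92 (SE 0.205, adjusted p = 0.233).

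The mammal-wide names had a median log2 difference of 0.19 after TDP-43 siRNA, with 67 of 82 above 0, beside 0.01 for all 1137 repeat names tested. The rodent names had a median of 0.01, with 15 of 29 above 0. The 6 rat names had a median of -0.57, with 0 above 0. The 20 Lx names had a median of 0.02, the 3 Mur names of 0.23 and the 5 HAL1 names of 0.01. By library values, 9 LINE-1 names lay wholly higher and 7 wholly lower after TDP-43 siRNA. Over all repeat names 7.3% lay wholly higher and 5.98% wholly lower, so the number of LINE-1 names without overlap was near the background. In the plot of poly(A) differences by tier the rat names form the lowest cluster, and all 9 names that lay wholly higher were mammal-wide, and 5 of the 7 that lay lower were rodent. With library totals alone as the scale, the median of all repeat names moved to -0.71, and that of LINE-1 names to -0.40, so the medians above are relative to the bulk of repeats.

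**Figure D3:**
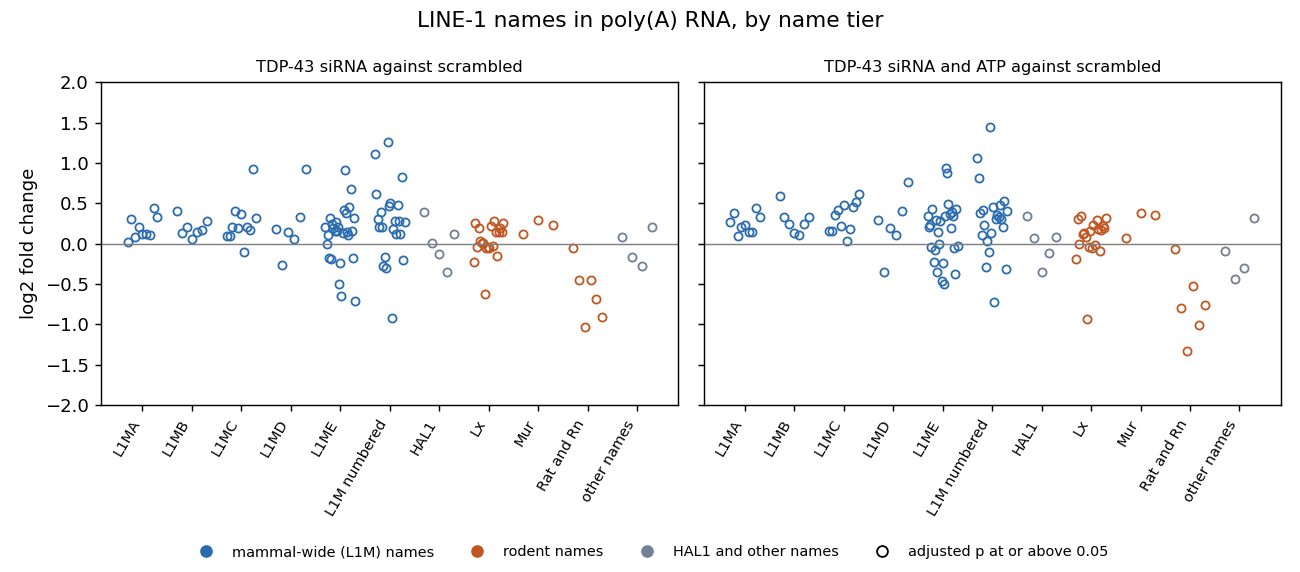
Log2 difference of each LINE-1 name (points) against scrambled siRNA in poly(A) RNA, grouped by name tier along the horizontal axis, for TDP-43 siRNA and for TDP-43 siRNA and ATP. All points are open because none passed the edgeR test. Mammal-wide tiers centre a little above 0 and the rat names lie below 0, with medians of -0.57 and -0.78.

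The comparison of TDP-43 siRNA and ATP with scrambled siRNA uses the same scrambled libraries, so it adds no independent view of them. It again gave 0 calls among 120 names by edgeR, against 0.264% of all repeat names (0.088% higher and 0.176% lower). At an unadjusted p under 0.05 there were 17 (14.2%, beside 14.8% of all repeat names), and DESeq2 called 7 (5.69%, beside 5.23%). L1_Rat3 differed by -1.34 (SE 0.245), L1_Rn by -1.01 (SE 0.201) and Lx3A by -0.94 (SE 0.184) on the log2 scale, each with an edgeR adjusted p of 0.0606. Lx3A, a murine name, had 1080, 653 and 922 CPM with scrambled siRNA, 580, 495 and 643 CPM with TDP-43 siRNA and 505, 471 and 414 CPM with TDP-43 siRNA and ATP, without overlap. The median was 0.26 for mammal-wide, 0.08 for rodent and -0.78 for the rat names, beside 0.01 for all repeat names. Wholly higher were 27 of the 120 LINE-1 names and wholly lower 9, where 11.2% and 10.1% of all repeat names lay so. The share wholly higher was thus above the background and the share wholly lower below it, which was not tested. Of the 27, 23 were mammal-wide.

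The calls depended on single scrambled libraries. Without scrambled library 1, edgeR called L1_Rn2 (-1.24, adjusted p = 0.00346) and L1MCb (1.06, adjusted p = 0.0252) after TDP-43 siRNA. Without scrambled library 2 it called L1_Rat3 (-1.27, adjusted p = 0.0052), L1_Rat4 (-0.56, adjusted p = 0.0186), Lx3A (-0.80, adjusted p = 0.0199) and L1_Rn (-0.86, adjusted p = 0.0298). After TDP-43 siRNA and ATP, leaving out either of these libraries gave 5 calls (4.13% of LINE-1 names), all lower and all rodent names. Over all repeat names those fits called 2.77% without library 1 and 6.64% without library 2. For TDP-43 siRNA alone they called 0.865% and 3.53% of all repeat names, beside 1.65% and 3.31% of LINE-1 names. L1_Rn, L1_Rat3, L1_Rat4 and Lx3A were called in both cases. Without scrambled library 1 the median after TDP-43 siRNA was 0.07 for mammal-wide and -0.14 for rodent names.

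ATP on top of TDP-43 siRNA gave 0 LINE-1 calls by edgeR and by DESeq2, and both called 0% of all repeat names. At an unadjusted edgeR p under 0.05 there were 0, beside 0.44% of all repeat names. The median LINE-1 difference was 0.05. Wholly higher were 7 LINE-1 names and wholly lower 3, where 4.75% and 7.65% of all repeat names lay so. L1_Rat2 differed by -0.35, L1MCb by -0.41 and L1ME2 by 0.21, all with an adjusted p of 1. The rodent share differed by -1.87 points (exact permutation p = 0.3).

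The amount of LINE-1 RNA relative to genes did not separate the groups. LINE-1 counts per 1000000 gene counts were 8332, 23460 and 21620 with scrambled siRNA, 18920, 19740 and 14850 with TDP-43 siRNA and 20080, 18710 and 24920 with TDP-43 siRNA and ATP. Scrambled library 1 was the lowest of all 9 and the other scrambled libraries lay among the highest. The difference for TDP-43 siRNA was 32.7 on that scale (exact permutation p = 1). As a share of repeat counts without structural RNA and satellites, LINE-1 names took 18.2, 20 and 20.8% with scrambled siRNA, 17, 17.6 and 16.6% with TDP-43 siRNA and 17.5, 16.6 and 17.9% with TDP-43 siRNA and ATP. The scrambled libraries were all higher, and the differences from them were -2.6 and -2.33 points (exact permutation p = 0.1 for each). Reads of LINE-1 sequence inside gene transcripts and of elements transcribed on their own cannot be told apart in these counts.

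Genes known to act on LINE-1 were read in the same poly(A) libraries. Of 61 such genes listed, 47 were tested, and 7 rose and 4 fell after TDP-43 siRNA. Of all 12096 genes 34.3% were called, 16.2% higher and 18.2% lower. In both directions the share of the 47 was below that of all genes, so the number called does not set the listed genes apart. Their median log2 difference was 0.18, beside 0.01 for all genes. The count was 19 (15 higher and 4 lower) without scrambled library 1. The share of all genes called was not computed for fits that leave out a library, so these counts have no background. The number lower depended on single libraries: it was 1 without library 3 of the TDP-43 siRNA group, and 2 without scrambled library 2, without either other TDP-43 siRNA library or without library 3 of the group with ATP. Among 13 heterochromatin genes 2 rose and 1 fell. Morc2, which works with the HUSH complex to silence young LINE-1 copies, went from 41.9, 35.6 and 40 CPM to 57.4, 59.1 and 59.4 CPM, with no overlap (log2 0.58, edgeR adjusted p = 0.000389). Ehmt1, a histone H3 lysine methyltransferase, went from 59.2, 60 and 54.1 CPM to 90.6, 105 and 77 CPM (0.65, edgeR adjusted p = 0.000574). Cbx3, a heterochromatin protein, fell by 0.34 (edgeR adjusted p = 0.0384). Among 5 DNA methylation genes Dnmt1, the maintenance methyltransferase, rose (0.41, edgeR adjusted p = 0.00391).

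Among 12 genes that restrict LINE-1 RNA or its cDNA, 2 rose and 3 fell. Adar, which edits adenosines in double-stranded RNA, rose from 45.7, 44.9 and 59.2 CPM to 80.8, 65.4 and 75.9 CPM (log2 0.57, edgeR adjusted p = 0.00189). Dgcr8, the partner of Drosha, rose by 0.45 (edgeR adjusted p = 0.00396). Mov10, a helicase that binds LINE-1 particles, fell from 75.6, 60.7 and 60.5 CPM to 55.1, 46.2 and 46.9 CPM (-0.41, edgeR adjusted p = 0.013). The nucleotide hydrolase gene Samhd1 fell by 0.57 (edgeR adjusted p = 0.0175) and the DNA exonuclease gene Trex1 fell by 0.40 (edgeR adjusted p = 0.0355). Safb2, 1 of 5 genes for proteins on intronic LINE sequence, rose by 0.41 (edgeR adjusted p = 0.00749). Zc3h13, 1 of 7 genes of m6A methylation, rose by 0.42 (edgeR adjusted p = 0.00717). None of the 5 host factors of the LINE-1 life cycle passed. With ATP as well, 10 rose and 4 fell against scrambled siRNA, where 37.4% of all genes were called, 17.4% higher and 20% lower. Of those tested a larger share rose and a smaller share fell than of all genes. Against TDP-43 siRNA alone 0 were called, by edgeR and by DESeq2, where 1.07% of all genes were, 0.926% higher and 0.141% lower. The 14 calls with ATP became 9 without library 3 of that group, and 18 without scrambled library 1, again with no share of all genes computed.

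In input RNA, which is total RNA made into libraries with another kit, TDP-43 siRNA left no LINE-1 call: 0 of 120 by edgeR and 0 by DESeq2, where both called 0% of all repeat names. At an unadjusted edgeR p under 0.05 there was 1, beside 1.45% of all repeat names. The LINE-1 median was -0.00 and the values ran from -0.45 to 0.48. The rodent share was 66.1% ± 0.173 (n = 3) in control and 66.3% ± 0.252 (n = 3) in TDP-43 siRNA input (exact permutation p = 0.4). The 6 rat names held 23 to 23.5% of LINE-1 counts in all 6 input libraries. Input and poly(A) RNA were prepared and scaled apart, and the difference between them was not tested. L1MA5, the mammal-wide name nearest to a call, had 808, 788 and 794 CPM in control and 672, 681 and 672 CPM in TDP-43 siRNA input, with no overlap (log2 -0.24, edgeR adjusted p = 1). When input libraries were fitted without the J2ip libraries, edgeR called 11 of 121 LINE-1 names, 3 higher and 8 lower, L1MA5 among them (-0.24, adjusted p = 0.000472). That is 9.09%, below the 13.8% of all repeat names called in that fit. Wholly higher in TDP-43 siRNA input were 10 names and wholly lower 22, where 15.9% and 17.4% of all repeat names lay so. L1_Rat3 had 6140, 6090 and 5940 CPM in control and 6000, 6030 and 5820 CPM in TDP-43 siRNA input, and these overlapped.

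With TMM scaling, most mammal-wide LINE-1 names called were higher in J2ip than in input and most rodent names called were lower, but with library totals alone most called names of both kinds were higher. In control cells, with TMM, 43 LINE-1 names were higher and 21 lower in J2ip than in input, out of 120. Over all repeat names 29.7% were called, 12.2% higher and 17.4% lower. Mammal-wide names made up 35 of the 43 that were higher, and 6 of the 21 that were lower. The median log2 difference was 0.34 for the 82 mammal-wide names, -0.21 for the 29 rodent names and -0.65 for the 6 rat names, beside -0.09 for all repeat names. By library values 51 LINE-1 names lay wholly higher and 31 wholly lower, where 19.9% and 32.5% of all repeat names lay so. With library totals alone the median of all repeat names moved to 0.68, the rodent median turned positive at 0.57, below that of all repeats, and the mammal-wide median was 1.11. On that scale 79 LINE-1 names were higher and 6 lower, with 19 rodent names higher and 3 lower, and 477 of all repeat names higher and 106 lower. Structural RNA took 43.4 to 52.3% of repeat counts in input and 2.33 to 6.89% in J2ip.

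The cells with TDP-43 siRNA gave the same order from separate libraries. There 42 LINE-1 names were higher and 26 lower, where 29.8% of all repeat names were called, 12.6% higher and 17.2% lower. Upper-quartile scaling split the LINE-1 names 53 and 20, beside 191 higher and 167 lower of all 1176 repeat names. Wholly higher were 49 and wholly lower 38, where 20% and 32.1% of all repeat names lay so. The median was 0.34 for mammal-wide, -0.29 for rodent and -0.66 for rat names, beside -0.04 for all repeat names. With library totals alone the medians were 1.04 for mammal-wide and 0.41 for rodent names, beside 0.65 for all repeat names. On that scale 75 LINE-1 names were higher and 3 lower, beside 463 and 93 of all repeat names.

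**Figure D4:**
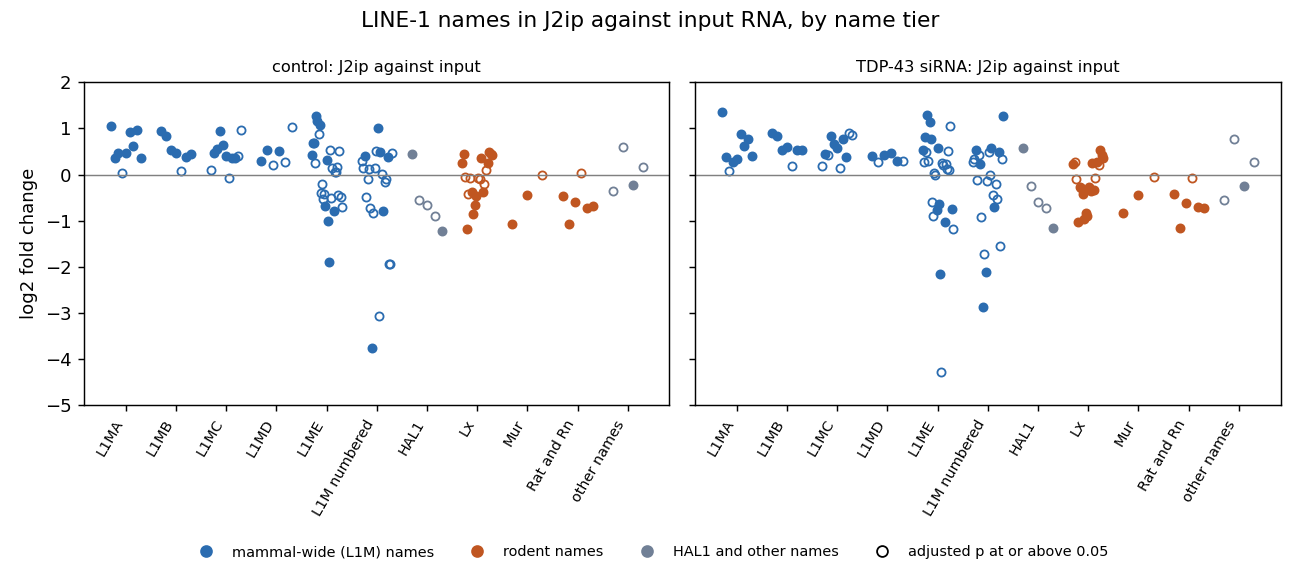
Log2 difference, with TMM scaling, between J2ip and input of each LINE-1 name (points) by name tier (horizontal axis), in control cells and in cells with TDP-43 siRNA. Filled points passed the edgeR test. L1MA to L1MD names lie mostly above 0, the L1ME names spread to both sides, and the rat names lie below 0, except L1_Rat4, which is at 0.03 in control cells; with library totals alone most called rodent names turn higher.

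Within the mammal-wide names the plot by tier shows the younger tiers, L1MA to L1MD, with no name called lower. L1MA names were higher in 8 of 9 cases and lower in 0 in control cells, with a median of 0.47. L1MB names were higher in 6 of 7 (median 0.46), L1MC names in 7 of 11 (0.41) and L1MD names in 3 of 6 (0.40), with 0 lower in each. The oldest tier, L1ME, was split, with 7 of 27 higher and 4 lower (0.06), and the numbered L1M names had 4 of 22 higher and 2 lower (-0.04). With TDP-43 siRNA the counts were 8 and 0 for L1MA, 6 and 0 for L1MB and 6 and 0 for L1MC. They were 4 and 0 for L1MD, 6 and 5 for L1ME and 5 and 3 for the numbered names. Over all repeat names 12.2% were higher and 17.4% lower in control cells, and 12.6% and 17.2% with TDP-43 siRNA. These shares are also the background of the rat and Lx counts below. Some L1ME and numbered names, such as L1MEa and L1M3b, had few J2ip counts. The part of read depth in the tier order was not tested.

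The largest rises included 3 L1ME3 names. L1ME3A had 266, 260 and 258 CPM in control input and 595, 761 and 523 CPM in control J2ip. With TDP-43 siRNA it had 250, 258 and 264 CPM in input and 619, 661 and 621 CPM in J2ip. All J2ip libraries were above all input libraries, with log2 differences of 1.26 (SE 0.117, edgeR adjusted p = 1.21e-05) and 1.30 (edgeR adjusted p = 8.77e-06). L1ME3Cz rose from 170, 169 and 160 CPM to 334, 384 and 336 CPM in control cells (1.08, edgeR adjusted p = 8.19e-05) and by 0.77 with TDP-43 siRNA (edgeR adjusted p = 0.000808). L1ME3B moved most with 1 library: control J2ip had 219, 235 and 488 CPM over 140, 139 and 143 CPM in input (1.16, edgeR adjusted p = 0.008), and without library 3 its difference was 0.69. With TDP-43 siRNA L1ME3B had 126, 213 and 189 CPM in J2ip against 148, 140 and 142 CPM, which overlap (0.30, edgeR adjusted p = 0.46). L1MA10 had 92.5, 91.3 and 87.6 CPM in control input and 169, 214 and 177 CPM in control J2ip (1.04, edgeR adjusted p = 0.00408). In TDP-43 siRNA cells it went from 80.9, 83.4 and 85.7 CPM to 271, 234 and 134 CPM (1.35, edgeR adjusted p = 0.000753). L1M8 passed with TDP-43 siRNA (1.28, edgeR adjusted p = 0.00222) and had a difference of 0.46 in control cells (edgeR adjusted p = 0.179). The difference between these was not called.

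Abundant names of the younger mammal-wide tiers, picked after their values were seen, were also higher in J2ip. L1MA6 went from 1220, 1180 and 1200 CPM to 2030, 2130 and 2700 CPM in control cells (0.93, edgeR adjusted p = 7.16e-05). L1MB2 went from 704, 700 and 759 CPM to 1180, 1430 and 1270 CPM (0.84, edgeR adjusted p = 1.01e-05). L1MC3 went from 702, 691 and 696 CPM to 1270, 1270 and 1470 CPM (0.94, edgeR adjusted p = 1.01e-05). In each the groups did not overlap, and the values with TDP-43 siRNA were 0.88, 0.83 and 0.84.

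Some names of the old L1ME tier fell. L1ME5 had 231, 228 and 234 CPM in control input and 70.1, 51.5 and 63.4 CPM in control J2ip, and 235, 252 and 245 CPM against 42.1, 62.1 and 59.3 CPM with TDP-43 siRNA. It fell by 1.90 (SE 0.177, edgeR adjusted p = 1.21e-05) and by 2.16 (SE 0.179, edgeR adjusted p = 5.27e-06). Its neighbours by name, L1ME4c and L1MEd, which were picked after their values were seen, fell by 1.01 and 0.79 in control cells (edgeR adjusted p = 0.00511 and 0.00164). Among called LINE-1 names with a mean of at least 10 CPM in control cells, the oldest tier held both the largest rise, L1ME3A, and the largest fall, L1ME5. The lowest point in the plot of J2ip against input by tier in control cells is L1M3b, a numbered name with few counts and means of 10.8 CPM in input and 0.738 CPM in J2ip.

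The rat names were lower in J2ip in 5 of 6 cases in control cells and again in 5 of 6 with TDP-43 siRNA. L1_Rat2 went from 4350, 4280 and 4310 CPM to 1960, 2010 and 2160 CPM in control cells (-1.08, edgeR adjusted p = 1.33e-07). With TDP-43 siRNA it went from 4290, 4090 and 4190 CPM to 1890, 1780 and 1990 CPM (-1.15, edgeR adjusted p = 4.65e-08). The next 2 differed less. L1_Rn went from 4200, 4170 and 4200 CPM to 2350, 2500 and 2720 CPM (-0.73, edgeR adjusted p = 4.11e-06), and L1_Rn2 from 4680, 4610 and 4730 CPM to 2780, 2710 and 3210 CPM (-0.69, edgeR adjusted p = 1.13e-05). L1_Rat3 went from 6140, 6090 and 5940 CPM to 3620, 3680 and 4670 CPM (-0.60, edgeR adjusted p = 0.000266). L1_Rat1 differed by -0.47 (edgeR adjusted p = 0.00101). With library totals alone L1_Rn, L1_Rn2 and L1_Rat3 turned to between 0.04 and 0.17 in control cells, below the 0.68 of all repeat names on that scale. L1_Rat4 was the exception, with 6750, 6590 and 6580 CPM in input and 6250, 6580 and 7450 CPM in J2ip, which overlap (0.03, edgeR adjusted p = 0.832).

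The Lx names were split within the tier, with 7 higher and 6 lower of 20 in control cells and 6 higher and 9 lower with TDP-43 siRNA. Lx8, the most counted LINE-1 name of the immunoprecipitation, had 7380, 7460 and 7610 CPM in input and 10200, 10700 and 10900 CPM in J2ip of control cells, with no overlap (0.50, edgeR adjusted p = 4.02e-05). It rose by a like size with TDP-43 siRNA (0.53, edgeR adjusted p = 2.45e-05). Lx itself had 6560, 6370 and 6410 CPM against 6950, 8060 and 7820 CPM (0.24, edgeR adjusted p = 0.0105), a call lost without control input library 2 (0.23). At the other end Lx2A went from 403, 393 and 399 CPM to 207, 150 and 173 CPM (-1.17, edgeR adjusted p = 4.4e-05), and Lx3A, which was also lower in poly(A) RNA of knockdown cells, had -0.85 (edgeR adjusted p = 1.56e-05). Of the 3 Mur names L1_Mur1 (-1.08) and L1_Mur2 (-0.45) were lower and L1_Mur3 (-0.01) was not called.

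The HAL1 names also parted. RNHAL1, the rat HAL1, had 2060, 2030 and 2050 CPM in control input and 837, 823 and 975 CPM in control J2ip, and 2080, 2210 and 2120 CPM against 1000, 923 and 931 CPM with TDP-43 siRNA. It fell by 1.22 (edgeR adjusted p = 1.61e-07) and by 1.17 (edgeR adjusted p = 2.1e-07). HAL1, with the mammal-wide name, had 401, 400 and 416 CPM in input and 460, 512 and 691 CPM in J2ip of control cells (0.45, edgeR adjusted p = 0.0212), and in TDP-43 siRNA cells 0.57 (edgeR adjusted p = 0.0064). The control call was lost without any 1 control input library or without control J2ip library 3 (0.26 to 0.48). HAL1b (-0.90), HAL1M8 (-0.54) and HAL1ME (-0.67) did not pass in control cells.

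As shares, the rodent names went from 66.1% ± 0.173 (n = 3) of LINE-1 counts in control input to 59.8% ± 0.635 (n = 3) in control J2ip, a difference of -6.33 points that needs no scaling between libraries. With TDP-43 siRNA they went from 66.3% ± 0.252 (n = 3) to 58.9% ± 0.551 (n = 3), a difference of -7.47 points (exact permutation p = 0.1 for each, the smallest possible). LINE-1 names as a whole took 9.5% of repeat counts in control input and 17.2% in control J2ip, and 9.84% and 16.9% with TDP-43 siRNA. Without structural RNA and satellites, whose share also differed as given above, the shares were 17.9 and 18% in control cells (exact permutation p = 1) and 18.1 and 17.7% with TDP-43 siRNA (exact permutation p = 0.5).

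TDP-43 siRNA did not give a LINE-1 call within J2ip RNA, with 0 of 120 by edgeR where 0.17% of all repeat names were called. At an unadjusted p under 0.05 there were 18 (15%, beside 17.6% of all repeat names). DESeq2 called 12 (9.84%, beside 6.21% of all repeat names), of which 3 were higher and 9 lower. L1_Mur1 had 599, 614 and 534 CPM in control J2ip and 682, 748 and 766 CPM in TDP-43 siRNA J2ip, with no overlap (0.33, edgeR adjusted p = 0.057). L1MC5a had 585, 694 and 664 CPM against 852, 869 and 767 CPM, also with no overlap (0.36, edgeR adjusted p = 0.057). L1MD1 had 843, 806 and 658 CPM against 619, 606 and 531 CPM (-0.39, edgeR adjusted p = 0.0665). In all, 4 LINE-1 names lay wholly higher and 7 wholly lower, where 4.59% and 4.17% of all repeat names lay so. Leaving out any single J2ip library brought 1 to 5 LINE-1 names past the threshold, or 0.826 to 4.13% of them, while 0.663 to 4.56% of all repeat names passed in the same fits. Without control J2ip library 2, the case with 5, they were L1_Mur1, L1MC5a, L1M3d, L1MA4A and Lx3C.

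The J2 enrichment itself, taken as the difference between siRNA groups in the log2 of J2ip over input, gave 0 LINE-1 calls by edgeR and by DESeq2, where edgeR called 0% and DESeq2 0.801% of all repeat names. At an unadjusted edgeR p under 0.05 there were 9, beside 7.48% of all repeat names. The 3 names with the smallest p were L1MC5a (0.42, adjusted p = 0.327), L1M3d (-2.26, adjusted p = 0.428) and Lx3C (-0.44, adjusted p = 0.546). L1M3d is low in counts, with 12.3, 11.3 and 27.6 CPM in control J2ip and 2.52, 4.72 and 2.91 CPM in TDP-43 siRNA J2ip. Enrichments in control and in TDP-43 siRNA cells shared no library, and across the 29 rodent names they had Pearson's r = 0.955 and Spearman's rho = 0.959. Across the 82 mammal-wide names r was 0.597 and rho 0.756. Across the 1056 repeat names outside LINE-1 r was 0.702 and rho 0.683. No rodent name had fewer than 400 counts in any of these libraries, while some mammal-wide names, such as L1M3b and L1MEa, fell to 0. The part of low counts in the wider scatter of mammal-wide names was not tested. These correlations describe names, which share libraries within a group and are not independent replicates.

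**Figure D5:**
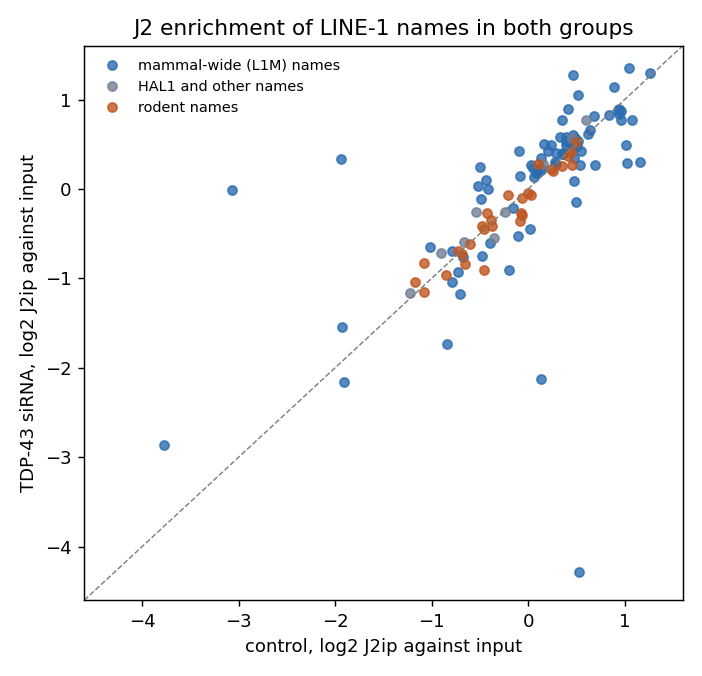
Log2 difference between J2ip and input for each LINE-1 name in control cells (horizontal axis) and in cells with TDP-43 siRNA (vertical axis), with the line of equality. Rodent names lie close to the line (r = 0.955), and mammal-wide names scatter more widely (r = 0.597). Some mammal-wide names have few J2ip counts, and their part in this scatter was not tested.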

How the data were processed

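The authors deposited raw read counts in 3 tables, 1 of genes for the 9 poly(A) libraries and 2 of repeat names, for the same 9 and for the 12 total RNA libraries. Per the submitters' processing notes, Trimmomatic, Bowtie2, TopHat2 and DESeq2 were used with rn6. Not given in the sources used here are the repeat annotation, the counting tool, its use of strand and its treatment of reads with several positions. Poly(A) libraries used a TruSeq kit and total RNA libraries a ScriptSeq kit, per the labels' protocols.

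Each table was scaled and fitted on its own, and values were set side by side only. Counts were scaled by TMM, low features removed by filterByExpr, and all groups of a table fitted with 1 mean per group and tested with edgeR 4.0.16 (quasi-likelihood, R 4.3.3, limma 3.58.1). P-values were adjusted by the Benjamini-Hochberg method over all names of a table, with a threshold of 0.05. CPM are counts per 1000000 of the TMM-scaled total. Shares were tested by exact two-sided permutation of libraries (smallest p 0.1). Among gene rows, 26 held dates in place of symbols, with 0.286 to 0.331% of counts, and were left out.

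Of 123 names, 120 were tested in each table. L1M2a1, L1M2b and L1M6B were too low. Names were given by rule: among calls with a mean of 10 CPM or more, the 3 largest rises and falls, or with no call the names with the 3 smallest p, plus the most counted names, the most counted rat, Rn or Mur names and the HAL1 names. Others, such as L1_Rat1 and the names called only in an alternative, were chosen after their values were seen. Members and gene lists were chosen with earlier results of these data known. Alternatives were DESeq2 1.42.0, other scalings and filters, fewer libraries in the fit, a replicate block and leaving out each library. The fit was tested on simulated data for TDP-43 siRNA against scrambled siRNA over 1137 poly(A) repeat names. It called 17.9% of names changed 1.5-fold, 37.3% of those changed 2-fold and 90.9% of those changed 4-fold. For TDP-43 siRNA input against control input it called 25.4%, 32.8% and 65.2% in the same order. Simulated libraries had the same expected mix of names apart from the changed ones. The spread of each name was estimated over all libraries of a table, so simulated input libraries carried a spread shared with J2ip. Recovery in the real libraries may therefore differ.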

Additional observations from a re-analysis of the deposited data

How the results depend on the processing

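The smallest LINE-1 adjusted p was 0.0606 after TDP-43 siRNA and ATP and 0.057 between the J2ip groups, near the threshold, but 0.233 after TDP-43 siRNA. DESeq2 called 4 LINE-1 names after TDP-43 siRNA, 7 after TDP-43 siRNA and ATP and 12 between the J2ip groups. Upper-quartile scaling called 3 after TDP-43 siRNA and ATP, where it called 13 of all repeat names. Fitting only the libraries compared called 11 in input. The cause of these differences was not tested. Direction turned with library totals alone for L1MCb after TDP-43 siRNA (-0.0345), for L1_Rat2 (0.0982) and L1MCb (0.0645) between ATP and TDP-43 siRNA alone, and in J2ip against input for HAL1M8 (0.23 in control cells and 0.45 with TDP-43 siRNA), HAL1ME (0.10 and 0.11), L1_Rat3 (0.173 and 0.0846), L1_Rn (0.0443 and 0.00664), L1_Rn2 (0.0872 in control cells) and L1_Rat4 (0.63 with TDP-43 siRNA). Upper-quartile scaling turned L1_Rat4 to 0.0352 with TDP-43 siRNA, and leaving out control J2ip library 3 turned it to -0.0541 in control cells, where its range was -0.0541 to 0.075. Without structural RNA and satellites the LINE-1 share of repeats differed by -0.433 points between TDP-43 siRNA J2ip and input. LINE-1 counts per 1000000 of TMM-scaled gene totals differed by -2190 after TDP-43 siRNA.

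Leaving out 1 library at a time gave 0 to 4 LINE-1 calls after TDP-43 siRNA, 0 to 5 after TDP-43 siRNA and ATP, 0 to 5 between J2ip groups, 56 to 76 in control J2ip against input, 54 to 78 with TDP-43 siRNA, and 0 in the other 3 repeat comparisons. For J2ip against input the main fit called 29.7% of all repeat names in control cells and 29.8% with TDP-43 siRNA. Their shares in the fits without a library are not given here. Control genes of LINE-1 gave 9 to 19 calls after TDP-43 siRNA and 9 to 18 with ATP, with no share of all genes computed. The rodent share differed by -8.23 to -4.53 points after TDP-43 siRNA, by -10.1 to -6.4 with ATP and by -6.7 to -6.15 and -7.73 to -7.18 in J2ip. LINE-1 as a share of all repeat counts differed by -3.78 to 0.95 points after TDP-43 siRNA, -3.15 to 1.59 with ATP, 0.23 to 1.12 between these, -0.125 to 0.745 in input and -0.867 to 0.533 in J2ip. LINE-1 counts per 1000000 gene counts differed by -4700 to 2860, -1300 to 6260 and 1560 to 4660 in the 3 poly(A) comparisons, and Tardbp between the knockdown groups by -0.0344 to 0.224. Whether replicate numbers pair the libraries is not stated in the labels. Same-number correlations were -0.252 to 0.144 in poly(A) repeats, where different-number ones were -0.278 to 0.286. Between control input and J2ip they were -0.0192 to 0.00612, against -0.0401 to 0.0489 for different numbers. Between TDP-43 siRNA input and J2ip they were -0.011 to 0.0775, against -0.104 to 0.0391. With 3 libraries per group these values cannot settle the pairing. A replicate block gave 64 LINE-1 calls in control J2ip and 65 with TDP-43 siRNA, 61 and 59 with the block within siRNA group, and 0 in the other repeat comparisons. Shares of all repeat names in these fits are not given here, so the J2ip counts stand without a background. The replicate block gave 9 control-gene calls after TDP-43 siRNA, 7 higher and 2 lower, with no share of all genes computed. At the depth of J2ip, 1852900 counts or more, names under about 10 CPM rest on few reads.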
